A study of Homo sapiens with 3 samples.

Results

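The enzymes that attach glucuronic acid, sulfate or glutathione to other molecules were followed in a pooled CRISPR knockout screen of metabolic genes in MIA PaCa-2, an established line of human pancreatic ductal adenocarcinoma cells. The members were taken by name. They were all genes of the guide library whose symbol begins with UGT1A, UGT2A, UGT2B, UGT3A, SULT, GST or MGST, and the rule itself uses no measured value. This gave 54 genes of the 2978 in the library, with 498 of its 30197 guides. There were 21 UDP-glucuronosyltransferase (UGT) genes, 12 sulfotransferase (SULT) genes and 21 glutathione transferase genes of the soluble (GST) and membrane-bound (MGST) types.

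The screen held 3 libraries, with 1 per group. All groups carried the guide library, delivered by lentivirus and selected with puromycin. The initial population had received no treatment and was taken at day 0, the DMSO arm was grown for 14 days in the solvent alone, and the apilimod arm was grown for 14 days with apilimod, a drug that blocks PIKfyve, a lipid kinase of endosomes. The labels give 200 nM for apilimod, whereas the study's methods state a different concentration for this arm, so the dose is uncertain. A further screen of the study at a higher dose was not analysed here. The comparisons ask which enzymes the cells needed in order to grow over 14 days, and whether that need differed under PIKfyve inhibition.

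Conjugation makes small molecules more soluble in water and prepares them for export. UGT enzymes lie in the endoplasmic reticulum and transfer glucuronic acid (or, for the UGT3A enzymes, other sugars) from UDP-sugars to steroids, bilirubin, bile acids and drugs. SULT enzymes work in the cytosol and transfer sulfate from the activated donor PAPS to phenols, hormones and sterols. GST enzymes join the tripeptide glutathione to reactive electrophiles, and several of them also reduce peroxides or isomerize metabolites. These families are best known from liver, intestine and kidney. Many members are near copies of each other that arose by tandem duplication, and the UGT1A genes share their last exons at 1 locus. Guide counts carry no expression level, so whether MIA PaCa-2 makes each enzyme was not measured here.

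The libraries held 24695476 counts at day 0, 26276517 in DMSO and 25599416 in apilimod. Guides against conjugation enzymes took 420674 counts at day 0, which is 1.70% of the library (95% Wilson score interval 1.70 to 1.71). They took 486353 counts or 1.85% in DMSO (1.85 to 1.86) and 480424 counts or 1.88% in apilimod (1.87 to 1.88). The share of these guides was thus higher in both day 14 libraries than at day 0. Control guides, which cut between genes, rose too, with a median log2 change in share of 0.14 in DMSO and 0.22 in apilimod. Relative to that, the guides of scored members had medians of -0.03 and -0.14, so the higher share is no gain over control guides. The median guide had 696, 779 and 787 counts in the 3 libraries, and 0, 1 and 2 of the 498 guides were at 0. These intervals cover counting error only, since guide reads are PCR copies without molecular identifiers.

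A guide's log2 change was its share of the day 14 library over its share at day 0, and all values are given relative to the median of the control guides, which cut between genes. A gene score was the mean over its guides, so a score of 0 means that knockout cells kept pace with control cells and a negative score means that they were lost. Guides needed 100 counts at day 0 and genes needed 6 such guides. Of the members' guides, 481 passed, and 49 members with 461 guides were scored, as were 2969 genes in all. They comprised 16 UGT, 12 SULT and 21 GST and MGST genes. The 5 members without enough guides were UGT1A3, UGT1A4, UGT1A6, UGT1A8 and UGT1A9. For scored genes an exact two-sided rank-sum test compared the gene's guides with 487 control guides, and a gene was called lower or higher at a Benjamini-Hochberg adjusted p under 0.05 over all 2969 genes. With 1 library per group, the test compares these libraries and not the conditions, and every SD is over the guides of a gene.

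After 14 days in DMSO most conjugation enzymes stayed near the control guides. The scored members ran from -0.68 to 0.26 with a median of -0.05. Over all genes the range was -4.50 to 0.72 and the median was -0.17. By the guide test 5 of the 49 members (10.2%) were called lower, where 18.9% of all genes were. None was called higher, where 0.842% of all genes were. At an unadjusted p under 0.05 the exact rank-sum test found 9 members lower and 2 higher, where 27.3% of all genes were lower and 2.43% higher. By size alone 3 scored members (6.12%) lay at least 0.5 below the controls, compared with 18.2% of all genes, and none lay as far above.

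In apilimod the picture was alike in its outline. The scores ran from -1.21 to 0.45 with a median of -0.04, beside -4.19 to 0.88 and a median of -0.26 over all genes. The test called 8 members lower (16.3%), where the share of all genes was 29.0%, and none higher, where it was 0.236%. At an unadjusted p under 0.05 the exact test found 10 lower and none higher, where 39.3% of all genes were lower and 0.876% higher. At least 0.5 below the controls were 6 scored members (12.2%), against 27.2% of all genes. The 5 members called lower in DMSO, which are SULT1A3, GSTP1, GSTT2, SULT4A1 and SULT1C2, were also called lower in apilimod. Over all genes 15.2% were called lower in both arms. Both arms are set against the same day 0 library, so these calls are not independent of each other.

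The single guides gave the same outline as the genes. In DMSO the 461 member guides had an SD of 0.49, beside 0.40 for control guides and 0.83 for the guides of all other genes. Below the lowest 2.5% of control guides lay 4.99% of member guides and 13.6% of other gene guides. In apilimod the SDs were 0.69, 0.73 and 0.98, and the shares below that limit were 5.21% and 14.6%.

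**Figure D1:**
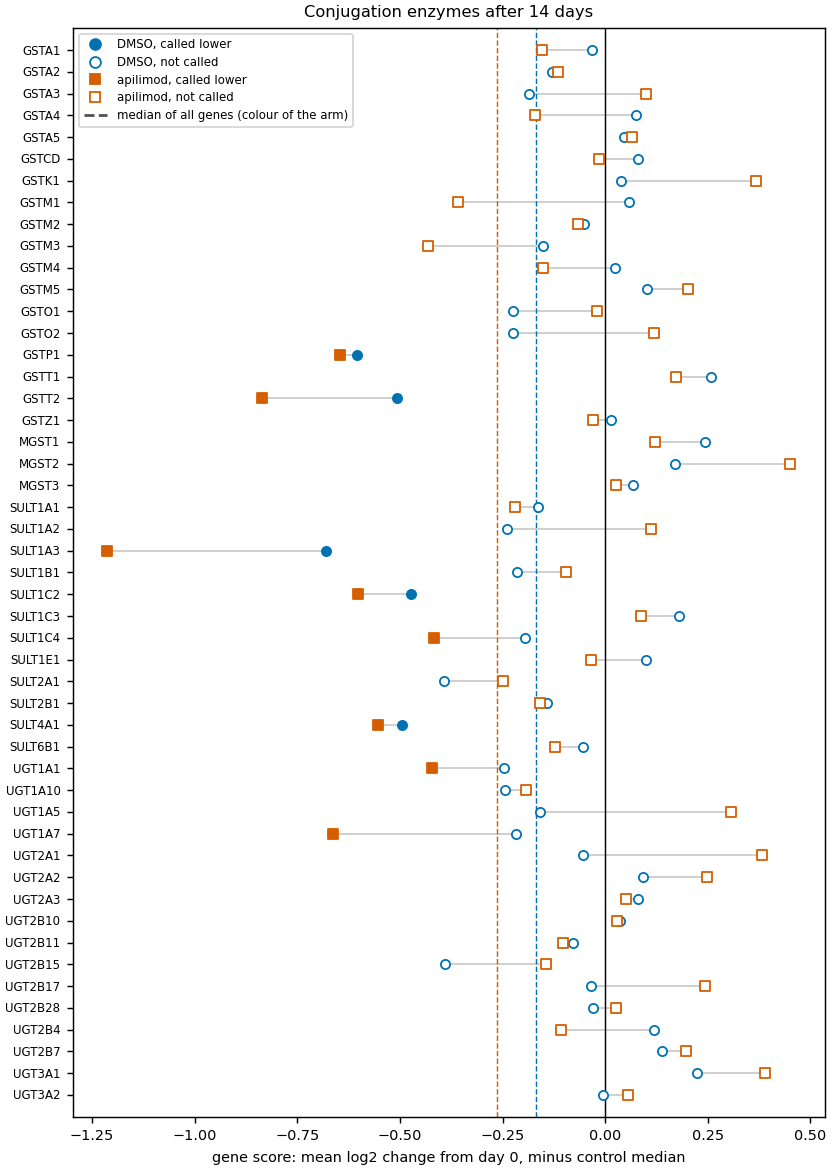
Gene scores of the 49 scored conjugation enzymes after 14 days in DMSO (circles) and apilimod (squares), as the mean log2 change of the gene's guides from day 0 minus the control guides' median. Filled symbols were called lower, and dashed lines mark the medians over all 2969 genes, -0.17 in DMSO and -0.26 in apilimod. SULT1A3 and GSTT2 lie farthest to the left in apilimod, at -1.21 and -0.84, and MGST2 farthest to the right, at 0.45.

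**Figure D2:**
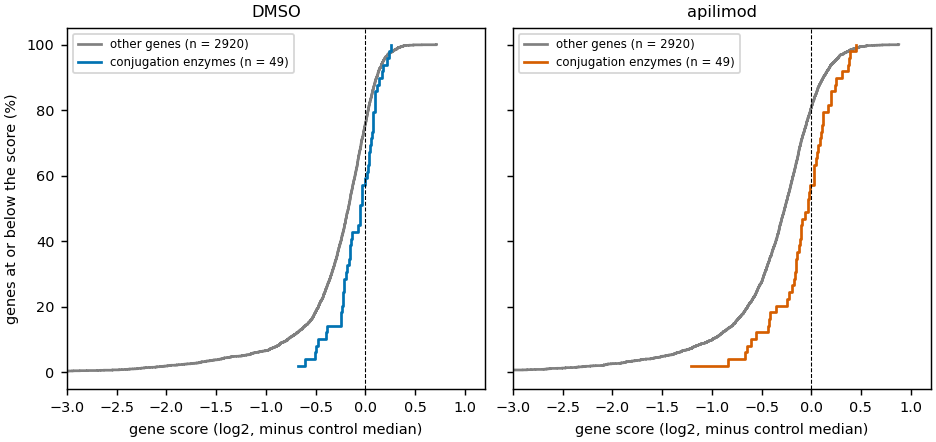
Cumulative share of genes (percent) at or below each gene score (log2, minus the control guides' median) for the 49 conjugation enzymes and the 2920 other genes, in DMSO (left) and apilimod (right), cropped on the left at -3. The members' curve lies to the right of the other genes over most of its course and has no member below -1.21.

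By class, the sulfotransferases had the lowest medians. Among the 16 scored UGT genes the median score was -0.03 in DMSO and 0.04 in apilimod, with 0 called lower in DMSO (2 at an unadjusted p under 0.05 by the exact test) and 2 called lower in apilimod. Among the 12 SULT genes the medians were -0.21 and -0.19, and 10 of 12 lay below the control median in each arm, where 75.5% of all genes did in DMSO and 80.4% in apilimod. Of these SULT genes 3 were called lower in DMSO and 4 in apilimod. Among the 21 GST and MGST genes the medians were 0.02 and -0.02, with 12 of 21 above the control median in DMSO, and 2 were called lower in each arm. In percent, the called were 0% in DMSO and 12.5% in apilimod of the UGT genes, 25% and 33.3% of the SULT genes, and 9.52% in each arm of the GST and MGST genes, beside 18.9% and 29.0% of all genes. The SULT counts are thus near those of all genes. No test of the differences between classes was made.

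The sulfotransferase SULT1A3 had the lowest score of all scored members in both arms. It is known for sulfating dopamine and other catecholamines. The annotation (GENCODE 44, hg38) places it at chr16:30199228-30204310 on the plus strand. Its 10 guides summed to 5423 counts at day 0, 3881 in DMSO and 3138 in apilimod. The score was -0.68 ± 0.49 (SD over guides, n = 10) in DMSO and -1.21 ± 0.74 in apilimod, so that its guides stood on average at 62.4% and 43.1% of the control level. All 10 guides lay below the control median in each arm, with an exact rank-sum adjusted p of 3e-05 in DMSO and 5.7e-08 in apilimod. Guide 9 went from 653 counts to 250 in DMSO and 169 in apilimod, and guide 6 from 838 to 355 and 399. Guide 1, which began at 157 counts, had 130 in DMSO and 27 in apilimod.

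The loss of SULT1A3 guides comes with a sequence property of the gene. All 146 of the 20-base sites that precede an NGG motif (the motif Cas9 needs) in its coding sequence occur again elsewhere in hg38, and the gene that shares most of them is SULT1A4, its near-identical copy. A guide against such a site matches the genome at more than 1 place. The guide sequences themselves were not used here, so these shares describe the gene and not the guides of the library.

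GSTT2, a theta class transferase at chr22:23980058-23983915 on the plus strand, had the second lowest apilimod score of the scored members and the same property. Of its 119 coding sites 115 (96.6%) occur again, with GSTT2B as the gene that shares most. Its 10 guides summed to 9906 counts at day 0, 9387 in DMSO and 7923 in apilimod. The score was -0.51 ± 0.54 (SD, n = 10) in DMSO, with 9 guides below the control median and an exact rank-sum adjusted p of 0.0237. In apilimod it was -0.84 ± 0.50, with 10 of 10 guides below and an exact rank-sum adjusted p of 2.8e-05. Guide 4 went from 594 counts to 299 and 208. Guide 3, at the other end, had 1461, 2101 and 1583.

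Repeated sites were compared with the scores over the members as a description. Of the 49 scored members 48 had a position on the chromosomes used, GSTT1 being the exception. SULT1A3 and GSTT2 were the only members with at least 90% of coding sites repeated, and both were called lower in both arms. Of the 11 members with 50% to under 90% repeated sites, 0 were called lower in either arm, and their median scores were -0.03 in DMSO and -0.10 in apilimod. Among these are UGT2B11 with 88.7%, UGT2B10 with 77.1%, UGT2B28 with 73.5%, UGT2B17 with 71.7% and SULT1A1 with 71.1%. In the 35 members under 50%, the medians were -0.05 and -0.03, and 3 were called lower in DMSO and 6 in apilimod. The 13 members with at least 50% repeated sites, SULT1A3 and GSTT2 included, had medians of -0.08 and -0.11. Of all genes 18.9% were called lower in DMSO and 29.0% in apilimod. The part of repeated sites in any score was not tested.

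**Figure D3:**
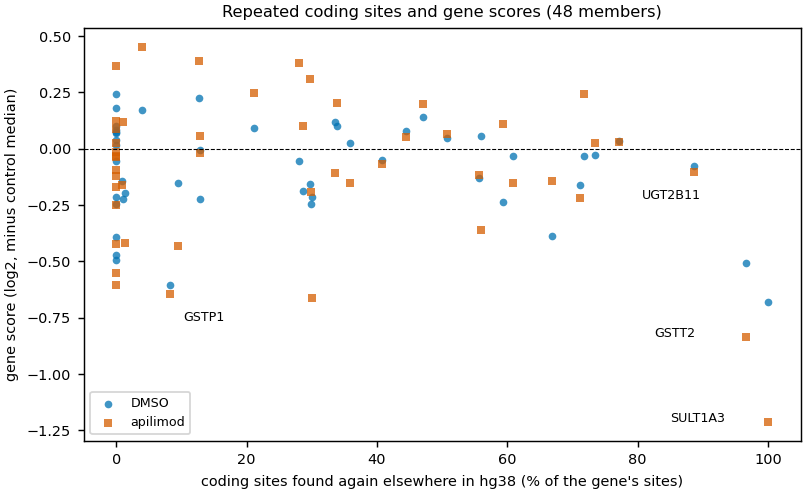
Gene score in DMSO (circles) and apilimod (squares) on the log2 scale minus the control median, against the percent of the gene's coding 20-base sites before NGG that occur again elsewhere in hg38, for 48 members. SULT1A3 and GSTT2 stand alone at the lower right, and the members between 50% and 90%, such as UGT2B11, lie between -0.39 and 0.24.

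GSTP1 had the lowest DMSO score of the scored members with under 50% repeated sites, and 8.3% of its own sites are repeated. It encodes the pi class transferase, which is abundant in many carcinomas, and lies at chr11:67583742-67586656 on the plus strand. Its 10 guides summed to 6196 counts at day 0, 5346 in DMSO and 5274 in apilimod. The score was -0.60 ± 0.71 (SD, n = 10) in DMSO with an exact rank-sum adjusted p of 0.0114, and -0.65 ± 0.87 in apilimod with 0.00912. In each arm 8 of 10 guides lay below the control median. The guides disagreed with each other in size. Guide 5 went from 557 counts to 164 in DMSO and 202 in apilimod and guide 4 from 387 to 146 and 137, whereas guide 9 had 405, 361 and 1044. The median over guides, which gives such guides less weight, was -0.40 in DMSO and -0.64 in apilimod.

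The other 2 sulfotransferases called in both arms had no repeated coding site. SULT4A1, a brain-enriched member for which no substrate is well established, lies at chr22:43824509-43862513 on the minus strand. Its counts summed to 7248, 7332 and 6173. The score was -0.49 ± 0.63 (SD, n = 10) in DMSO with an exact rank-sum adjusted p of 0.0264, and -0.55 ± 0.50 in apilimod with 0.00594. Below the control median lay 8 of 10 guides in DMSO and 9 of 10 in apilimod. With a minimum of 300 counts at day 0 the DMSO call was lost at an adjusted p of 0.114.

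SULT1C2, which acts on small phenols, lies at chr2:108288639-108309915 on the plus strand. Its 9 guides summed to 7933, 7180 and 6929 counts. The score was -0.47 ± 0.47 (SD, n = 9) in DMSO with an exact rank-sum adjusted p of 0.0245, and -0.60 ± 0.67 in apilimod with 0.0183. In each arm 7 of 9 guides lay below the control median. A further guide, number 5, had 44 counts at day 0 and so was left out. It had 16 counts in DMSO and 269 in apilimod, and with a minimum of 30 counts, which keeps it, the apilimod call was lost at an adjusted p of 0.0875. The apilimod call was also lost with no minimum, at 0.0856.

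UGT1A7, SULT1C4 and UGT1A1 were called lower in apilimod and not in DMSO. Of all genes 29.0% were called lower in apilimod and 15.2% in both arms, beside 16.3% and 10.2% of the members. UGT1A7, a form found mainly outside the liver, had sums of 6643, 7376 and 6278 counts. Its score was -0.22 ± 0.42 (SD, n = 7) in DMSO and -0.66 ± 0.73 in apilimod, where 7 of 7 guides lay below the control median and the exact rank-sum adjusted p was 0.0149. Guide 6 moved most, from 444 counts at day 0 to 289 in DMSO and 115 in apilimod. The median over guides in apilimod was -0.42.

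SULT1C4, a form known from fetal tissues, had a score of -0.19 ± 0.54 (SD, n = 9) in DMSO and -0.42 ± 0.39 in apilimod, with 8 of 9 guides below the control median and an exact rank-sum adjusted p of 0.0295. UGT1A1, the enzyme that conjugates bilirubin, had -0.25 ± 0.36 (SD, n = 8) and -0.42 ± 0.40, with 6 of 8 guides below in apilimod and an exact rank-sum adjusted p of 0.0448. Both calls were lost with a minimum of 300 counts, at adjusted p of 0.0916 and 0.0556. The SULT1C4 call was also lost with no minimum, at 0.121, and the UGT1A1 call when control guides needed 300 counts, at 0.0564. The direct test of apilimod against DMSO called none of these 3 genes, so a difference between the arms is not shown.

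**Figure D4:**
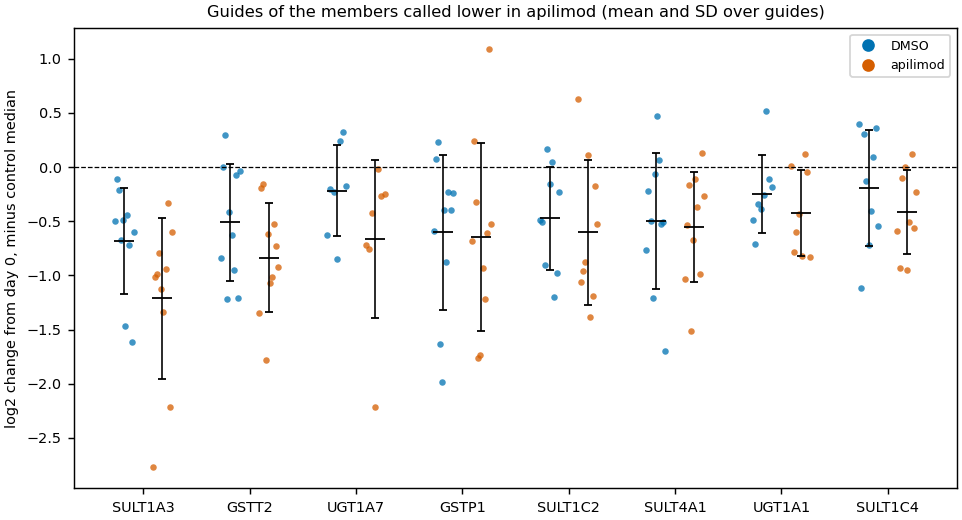
Log2 change from day 0 minus the control guides' median for every guide of the 8 members called lower in apilimod, in DMSO (left points of each pair) and apilimod (right points). Horizontal marks and bars give the mean and SD over the 7 to 10 guides of a gene. All SULT1A3 guides lie below 0 in both arms, while GSTP1 and SULT1C2 each have guides on both sides of it.

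The call depends on what the guides are compared with. When each gene was set against every other guide that passed the minimum, and not the control guides alone, 0 members were lower in DMSO, where 7.65% of all genes were, and 1 was higher, where 1.68% of all genes were. That 1 was MGST1, with an exact rank-sum adjusted p of 0.0364. In apilimod SULT1A3 was the 1 member lower, with an exact rank-sum adjusted p of 0.00311, against 7.71% of all genes. UGT2A2 and UGT3A1 were the 2 members higher, at an adjusted p of 0.0401 and 0.038, against 2.66% of all genes. Higher here means above the other guides, and all gene guides had medians of -0.14 in DMSO and -0.25 in apilimod relative to the controls. Against control guides the exact rank-sum adjusted p was 0.0939 for MGST1 in DMSO. In apilimod it was 0.266 for UGT2A2 and 0.271 for UGT3A1. By this comparison SULT1A3 in DMSO had an adjusted p of 0.0565, and GSTT2 in apilimod 0.0609.

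The UGT1A locus had the largest share of guides below the control median in DMSO of any member family. Its 9 genes lie nested at chr2:233617633-233773300 on the plus strand, each with its own first exon followed by shared exons, and from 40.8% to 47.2% of a gene's coding sites fall in exons that other UGT1A genes use. Because of these shared exons the 9 genes are not fully separate. Which exon is cut by each of the 51 guides that passed the count minimum was not known. In DMSO 43 of them (84.3%) lay below the control median, beside 61.1% of all gene guides, and their median was -0.26, beside -0.14. In apilimod 38 of them (74.5%) lay below, beside 67.1%, and the median was -0.27, beside -0.25.

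All 9 UGT1A gene scores in DMSO were below 0, where 75.5% of all scored genes were. In apilimod UGT1A5, at 0.31, and UGT1A8 lay above 0. The scored UGT1A10 and UGT1A5 had -0.24 ± 0.30 (SD, n = 10) and -0.16 ± 0.36 (SD, n = 6), and neither they nor UGT1A1 and UGT1A7 were called in DMSO. Of the untested genes UGT1A3 had -0.30 in DMSO and -0.27 in apilimod, UGT1A4 had -0.44 and -0.32, and UGT1A6, which prefers small planar phenols, had -0.32 and -0.59, each over 5 guides. UGT1A9 had -0.35 and -1.16 over 2 guides. UGT1A8 had -1.39 and 0.15 over 3 guides, of which guide 4 had 117 counts at day 0, 17 in DMSO and 244 in apilimod.

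The remaining UGT families lay around the control guides, and none of their members was called in either arm by the test against control guides. The 7 UGT2B enzymes, which glucuronidate steroids and bile acids, had scores from -0.39 (UGT2B15) to 0.14 (UGT2B7) in DMSO and from -0.15 (UGT2B15) to 0.24 (UGT2B17) in apilimod. The other members were UGT2B4, UGT2B10, UGT2B11 and UGT2B28. In UGT2B15 the 9 guides had an SD of 0.78 in DMSO, the widest of the scored UGT genes. The UGT2A enzymes are known from the olfactory epithelium and the airway, and UGT2A1 shares exons with UGT2A2 (43.1% of its coding sites fall in exons of another member). Their scores were -0.05 (UGT2A1), 0.09 (UGT2A2) and 0.08 (UGT2A3) in DMSO and 0.38, 0.25 and 0.05 in apilimod. The UGT3A enzymes use other UDP-sugars. UGT3A1 had 0.22 ± 0.53 (SD, n = 10) in DMSO and 0.39 ± 0.66 in apilimod, and UGT3A2 had -0.00 and 0.06.

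Among the sulfotransferases, the near relatives of SULT1A3 did not share its level. SULT1A1, the main phenol sulfotransferase, had -0.16 ± 0.53 (SD, n = 10) in DMSO and -0.22 ± 0.92 in apilimod. SULT1A2 had -0.24 ± 0.53 (SD, n = 9) and 0.11 ± 0.70. SULT1B1, which sulfates thyroid hormone, had -0.22 and -0.10. SULT1C3 and SULT1E1, the estrogen sulfotransferase, were the 2 members above the controls in DMSO, at 0.18 and 0.10. SULT2A1, which sulfates DHEA and bile acids, had -0.39 ± 0.69 (SD, n = 10) in DMSO and -0.25 ± 0.60 in apilimod. SULT2B1, which acts on cholesterol, had -0.14 and -0.16, and SULT6B1 had -0.05 and -0.12. None of these was called.

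The membrane-bound transferases had the highest median over guides of any member family in both arms, 0.28 in DMSO and 0.11 in apilimod, though none was called by the test against control guides. MGST1 detoxifies lipid peroxides in the endoplasmic reticulum and the outer mitochondrial membrane. It had 10096 counts at day 0, 14587 in DMSO and 12016 in apilimod. Its score was 0.24 ± 0.36 (SD, n = 10) in DMSO with 8 of 10 guides above the control median, and 0.12 ± 0.78 in apilimod. The exact rank-sum p in DMSO was 0.0223, adjusted to 0.0939. With a minimum of 300 counts the apilimod value turned to -0.12. MGST2, which can make leukotriene C4, had 0.17 ± 0.32 (SD, n = 9) in DMSO and the highest apilimod score of all members, 0.45 ± 0.92, with 5 of 9 guides above the control median. At a minimum of 300 counts that value was 0.03. MGST3 had 0.07 ± 0.35 (SD, n = 10) and 0.03 ± 0.56, and the median over its guides in apilimod was -0.02. Of the 29 MGST guides 7 (24.1%) lay below the control median in DMSO and 13 (44.8%) in apilimod.

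The soluble transferases other than GSTP1 and GSTT2 were not called in either arm. GSTT1 had the highest member score in DMSO, 0.26 ± 0.32 (SD, n = 9), and 0.17 in apilimod. GSTT1 and GSTM1 are genes that many people lack, and whether MIA PaCa-2 carries them was not measured here. The alpha class genes GSTA1 to GSTA5 lay between -0.19 and 0.07 in DMSO and between -0.17 and 0.10 in apilimod. The mu class genes GSTM1 to GSTM5 lay between -0.15 and 0.10 in DMSO and between -0.43 and 0.20 in apilimod. There GSTM3 (-0.43 ± 0.53, SD, n = 8) and GSTM1 (-0.36 ± 0.53, SD, n = 10) were the lowest, with exact rank-sum adjusted p of 0.0822 and 0.113.

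The omega class genes GSTO1 and GSTO2, which act as thiol transferases and dehydroascorbate reductases, both had -0.22 in DMSO, and -0.02 and 0.12 in apilimod. For GSTO1 the exact rank-sum adjusted p in DMSO was 0.112, and 9 of 10 guides had values below 0. GSTZ1, an isomerase of tyrosine breakdown, had 0.02 and -0.03, the mitochondrial and peroxisomal GSTK1 had 0.04 and 0.37, and GSTCD, which carries a transferase-like domain, had 0.08 and -0.01.

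The direct comparison of apilimod with DMSO called no conjugation enzyme. It is given as the log2 ratio of a guide in apilimod to the same guide in DMSO, minus the median of the control guides, and as a z score of the difference after both arms were scaled to a list of 26 nucleotide synthesis genes set to -1, whose medians were -1.77 in DMSO and -1.99 in apilimod. The scored members' ratios ran from -0.46 to 0.53 with a median of 0.04, and the median over all genes was -0.02. Of 49 members 32 lay above 0 and 17 below, where 53.7% of all genes lay below 0. By the exact rank-sum test on scaled differences 0 members were called lower, where 0.573% of all genes were, and 0 higher, where 0.0674% of all genes were. At an unadjusted p under 0.05 there was 1 member lower and none higher, where 8.93% of all genes were lower and 2.09% higher, and with all other guides in place of the control guides again 0 were called in either direction. The z scores ran from -1.35 to 1.89, so that none reached 2 in either direction. The reference list was itself not uniform, as 19 of its 26 genes were called lower in each arm. Of its genes 5 had z of at least 2 and 0 had z of at most -2, beside 81 and 49 of all 2969 genes. The test between the arms called 1 gene of the list higher.

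The 1 member with an unadjusted p under 0.05 was GSTM1, a mu class transferase with activity on many electrophiles. Its 10 guides summed to 8996 counts at day 0, 10620 in DMSO and 8031 in apilimod. The log2 ratio of apilimod to DMSO was -0.35 ± 0.32 (SD, n = 10), lower in 9 of 10 guides on the scaled difference, with z = -1.27 and an exact rank-sum p of 0.0036, adjusted to 0.158. Its largest guide went from 2215 counts at day 0 to 2222 in DMSO and 1206 in apilimod. Of its coding sites 56.0% occur again elsewhere in the genome.

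The lowest ratios of the scored members belonged to SULT1A3, UGT1A7 and GSTM1. SULT1A3 had a ratio of -0.46 ± 0.74 (SD, n = 10) with z = -1.35, an exact rank-sum adjusted p of 0.505 and only 6 of 10 guides lower on the scaled difference. With a minimum of 300 counts at day 0, which leaves out guide 1 among others, the ratio was -0.13. UGT1A7 had -0.38 ± 0.45 (SD, n = 7) with z = -1.26 and an exact rank-sum adjusted p of 0.472. GSTP1 had a ratio of 0.03, UGT1A1 -0.11, MGST1 -0.05, MGST3 0.03 and SULT1A1 0.01. With a minimum of 300 counts SULT1A1 turned to -0.14, and by the median over guides GSTP1 turned to -0.14 and MGST3 to -0.01.

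The scored members of highest ratio each held a guide of low initial count with many more counts in apilimod. UGT1A5 had 0.53 ± 1.15 (SD, n = 6) with z = 1.89 and an exact rank-sum adjusted p of 0.87, and its guide 3 had 109 counts at day 0, 109 in DMSO and 658 in apilimod. The median over its guides was 0.20. UGT2A1 had 0.50 ± 1.19 (SD, n = 10) with z = 1.74 and an exact rank-sum adjusted p of 0.883, and its guide 2 had 126, 86 and 669 counts. With a minimum of 300 counts its ratio was 0.19. SULT1A2 had 0.42 ± 1.11 (SD, n = 9), with guide 8 at 274, 128 and 1052 counts, and a ratio of 0.03 at that minimum. UGT1A5 and UGT2A1 were the 2 scored members (4.08%) at least 0.5 above the controls, where 3.17% of all genes were. No scored member lay as far below, where 3.84% of all genes did.

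Control guides of low initial count showed the same direction in apilimod. The 45 control guides with 100 to under 300 counts at day 0 had a median of 1.25 in apilimod and -0.08 in DMSO. The 61 member guides in that range had medians of 0.28 and -0.11. From 300 counts on, the 442 control guides had -0.02 in apilimod and 0.01 in DMSO, and the 400 member guides had -0.17 and -0.02. The high end of the apilimod scores, such as those of UGT1A5, UGT2A1 and MGST2, therefore stands beside a shift of weakly represented guides that cut no gene. Its part in those scores was not tested.

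**Figure D5:**
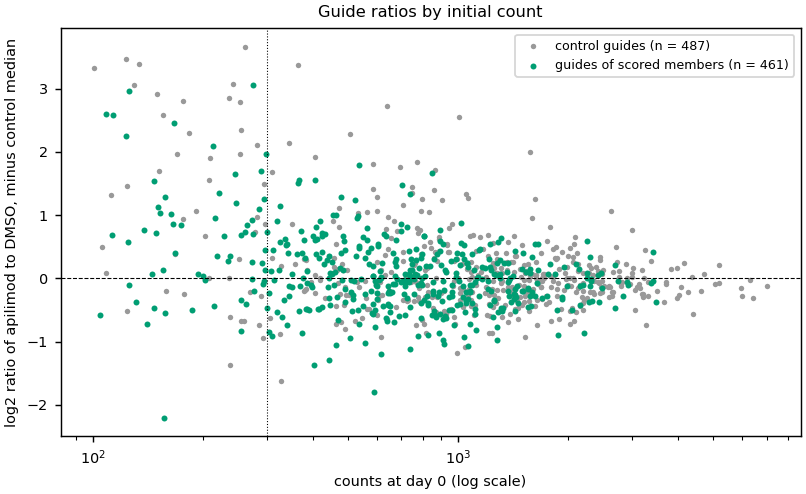
Log2 ratio of apilimod to DMSO, minus the control guides' median, against counts at day 0 (log scale) for the 487 control guides (grey) and the 461 guides of scored members (green). The dotted line marks 300 counts. To its left both sets spread upward to ratios above 2, and to its right both narrow around 0.

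The genes that serve conjugation were read from lists of supply, export and related enzymes. The apilimod to DMSO test called 0 of them in every list, and 0 were called higher in either arm. Their counts of genes called lower stand beside 18.9% of all genes in DMSO and 29.0% in apilimod. Of the 6 scored genes of UDP-glucuronate supply 2 (33.3%) were called lower in both arms. UGP2, which makes UDP-glucose, had -1.14 ± 1.16 (SD, n = 10) in DMSO and -1.09 ± 1.41 in apilimod, and SLC35B1, a nucleotide transporter of the endoplasmic reticulum, had -1.42 ± 0.76 (SD, n = 10) and -1.40 ± 0.72. Both also serve pathways outside glucuronidation. UGDH, the enzyme that oxidizes UDP-glucose to UDP-glucuronate, had -0.19 ± 0.68 (SD, n = 9) in DMSO and -0.32 ± 0.72 in apilimod and was not called.

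For sulfation, 0 of the 11 scored genes of PAPS supply and recycling were called lower in DMSO, although 2 had an unadjusted p under 0.05 by the exact test, and 4 (36.4%) were called lower in apilimod, near the share of all genes. These were the sulfate transporters SLC26A1 (-0.79) and SLC26A2 (-0.39), the sulfite oxidase SUOX (-0.36) and the thiosulfate sulfurtransferase TST (-0.40). The PAPS synthases PAPSS1 and PAPSS2 had -0.44 and -0.27 in DMSO and -0.36 and -0.09 in apilimod, and neither was called.

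Glutathione is the cosubstrate of the GST and MGST enzymes. Of 21 scored genes of glutathione synthesis, recycling and breakdown 5 (23.8%) were called lower in DMSO and 7 (33.3%) in apilimod, which is near the shares of all genes. GCLC, the catalytic subunit of the rate-limiting ligase, had -0.78 ± 0.40 (SD, n = 9) in DMSO with 9 of 9 guides below the control median, and -0.73 ± 0.83 in apilimod. Its modifier subunit GCLM had -0.34 and -0.37, and glutathione synthetase GSS had -0.52 and -0.99. HAGH, a glyoxalase that regenerates glutathione, had -0.42 and -0.64. SLC7A11, the cystine importer, was called lower in DMSO at -0.46 ± 0.61 (SD, n = 10) and had 0.13 ± 0.54 in apilimod. Its difference had z = 2.44 and an exact rank-sum adjusted p of 0.206, so it was not called. GGT6, GGT7 and NAT8 were called lower in apilimod alone, at -0.61, -0.49 and -0.98.

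The exporters and the enzymes that cleave conjugates each had 1 gene called lower in each arm, of 10 and 13 scored genes. That is 10% and 7.69%, beside 18.9% of all genes in DMSO and 29.0% in apilimod. Of 10 scored exporters ABCC11 was called lower in DMSO, with -0.51 there and -0.52 in apilimod. ABCC2, which carries conjugates into bile, was called lower in apilimod, with -0.36 in DMSO and -0.58 in apilimod. Of 13 scored hydrolases and their activator, ARSA, the lysosomal sulfatase of sulfatide, was called lower in both arms, at -0.75 ± 0.98 (SD, n = 10) in DMSO and -1.03 ± 0.78 in apilimod. Of 19 scored other conjugating enzymes 1 (5.26%) was called lower in DMSO and 3 (15.8%) in apilimod. Among them CCBL1, a cysteine conjugate lyase (-0.36), and TST, which stands in this list too, were called lower in apilimod alone. No test of the difference between these lists and the conjugation enzymes was made.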

How the data were processed

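Guide read counts were deposited by the authors for 3 libraries. The submitters' processing notes and the study's methods name cutadapt 4.1 for trimming, Bowtie2 2.4.5 for alignment to the guide library and MAGeCK 0.5.9.5 for counting. The notes also name bcl2fastq and hg38. The counts are not normalized.

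Each count plus 1 was divided by its library total, log2 changes were taken against day 0 and the control guides' median was subtracted. Filters (100 initial counts, 6 guides per gene) and mean scores followed the study's methods. Scaling differed in both references. Here 0 was the median of the guides named intergenic in the files, where the methods say non-targeting, and -1 the median gene score of a nucleotide synthesis list, where they use guides against core essential genes. Exact two-sided rank-sum tests, adjusted by the Benjamini-Hochberg procedure over 2969 genes, were run in Python 3.11.15 with numpy 2.4.6, scipy 1.17.1 and pandas 2.3.3, and were tested on simulated data. No count model was fitted, since 1 library per group leaves no residual degrees of freedom. Coding sites of 20 bases before NGG were read from GENCODE 44 and hg38.

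Members and lists were chosen with earlier results of these data known. Named members were those called (at most 8 per direction, of most extreme score), the 3 lowest and 3 highest in each comparison, any with z beyond 2, those without enough guides, and GSTP1, MGST1, MGST3, UGT1A1 and SULT1A1, and, from the other lists, called genes, of which 1 is not reported here. Further members were named to account for all of them, and UGDH, PAPSS1 and PAPSS2 were named after their values were seen. Alternatives covered the count and guide minimums, pseudocount, median over guides, null guides, division, table and scaling. Control guides with at least 300 counts as the null were added after the data were seen.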

Additional observations from a re-analysis of the deposited data

How the results depend on the processing

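No paired analysis was possible because each group has 1 library, so no library could be left out either. With all other guides as the null, members called lower numbered 0 in DMSO and 1 in apilimod, and members called higher 1 and 2. Under the other alternatives 4 to 5 members were lower in DMSO and 6 to 8 in apilimod, and none was higher. No member was called between the arms under any alternative. The members' median z was 0.17 and lay between 0.04 and 0.24, except at -0.06 with an N-glycosylation list as the reference. Over all genes, calls between the arms (17 lower and 2 higher) numbered 36 and 1 without scaling, 8 and 17 with the N-glycosylation list, 35 and 1 with a minimum of 30 counts, 31 and 1 with none, 28 and 1 with 300, 5 and 3 against all other guides, and 19 and 8 against control guides with at least 300 counts, an alternative chosen after seeing the data. In apilimod 12, 13 and 17 genes were higher with no minimum, a minimum of 300 and those control guides, beside 7. The causes were not tested. With 6 to 10 guides per gene and 1 library per arm, small differences were not detectable.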
